A study of Mus musculus with 10 samples.

Results

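Gene expression in C2, a culture of mouse left atrial appendage cells at passage 8, was compared with that in A, a primary isolate of the same pouch of the left atrium. The comparison took 2 C2 libraries and 2 A libraries, 4 of the 10 RNA-sequencing libraries in the study, and set the difference of each gene on a log2 scale against the spread between replicates. C2 cells were the 8th passage of B cells and were sorted as negative for both c-kit and CD45. B cells themselves had grown out after weak digestion of the tissue, with 0.05% trypsin and 0.1% collagenase D, and carried both c-kit, a receptor found on many stem and progenitor cells, and CD45, the phosphatase on the surface of white blood cells. A cells had grown out after strong digestion, with 0.25% trypsin and 0.1% collagenase D, and were sorted as positive for c-kit and negative for CD45. All cells came from adult C57BL/6 mice aged 8 to 12 weeks, with no transgene or treatment named. The groups therefore differed in digestion, parent culture, sort and passage at the same time, and these cannot be told apart. Nothing in the labels says that replicates came from separate animals or cultures, so each p-value is set against a replicate spread that may be technical in origin.

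The atrial wall holds several kinds of mesenchymal cell besides its muscle. Fibroblasts lay down collagen and elastic fibres, pericytes wrap small vessels and depend on Notch and PDGF signals, and the mesothelium, called epicardium on the heart, covers the outer surface as a sheet that carries keratins, uroplakins and mesothelin. HOX genes lie in 4 clusters whose order along the chromosome follows the body axis along which they are switched on, and fibroblasts keep a HOX pattern that marks the site from which they were taken. Imprinted genes, several of which act on fetal growth, are transcribed from the copy of 1 parent only and are often switched down after birth.

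The deposited values were read as log2 values centred on the median of each gene over the 10 libraries, a reading taken from the values because no source states it, so that 0 stands for that median and 1 unit for a doubling. Where at least 2 libraries shared the lowest value of a gene, that value marked the floor of 1 normalized read, and the level could be given as normalized reads, that is reads scaled for library size. A level at the floor means 0 reads in these 4 libraries, because 1 read was worth 2.04 and 1.04 normalized reads in C2 and 1.68 and 1.92 in A. A count of 0 allows up to 3 reads, or 6.12 and 3.11 normalized reads in the C2 libraries and 5.04 and 5.75 in the A libraries. Relative depth was 0.490 and 0.966 in C2 and 0.595 and 0.522 in A, and total reads are unknown. These limits cover counting error only.

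Of 36172 listed genes, 14254 passed the filter on low values and were tested. The log2 values of the C2 replicates lay 0.520 apart as a root mean square over the tested genes and those of the A replicates 1.06, against 1.499 to 1.583 for the 4 pairs of a C2 and an A library. Replicates lay at least 1 log2 unit apart for 5.95% of genes in C2 and for 18.2% in A. A gene was called where the adjusted p of the limma fit was under 0.05 and the log2 difference at least 1 in size. By that rule 2621 genes, 18.4% of those tested, differed between C2 and A. Of these, 1104 genes (7.75%) were higher in C2 and 1517 (10.6%) were lower. Differences of at least 3 log2 units made up 270 of the genes higher in C2 and 497 of those lower in C2, while the median difference over all tested genes was -0.02. The spread was estimated from all 10 libraries. With the 4 compared libraries alone, 426 genes (2.99%) were called higher and 671 (4.71%) lower. Counts under other settings are read below against the share of all genes called there: lower in C2 for 13.6% of genes without A replicate 1, 11.3% without A replicate 2, 8.54% without C2 replicate 1 and 7.74% without C2 replicate 2, and, after quantile normalization, higher for 12.6% and lower for 12.5%.

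The sorts were checked on the genes of both surface proteins. Ptprc, which encodes CD45, was at 0 reads in both C2 libraries, against 6.72 and 82.1 normalized reads in the A libraries. C2 therefore had none detected, whereas both A libraries, labelled CD45 negative, held Ptprc reads, most of them in A replicate 2. In bulk RNA, fewer cells of a type and less RNA per cell cannot be told apart. On the centred scale Ptprc stood at -0.01 in both C2 libraries, 2.74 and 6.35 in A and 11.46 and 11.41 in the B libraries, which were sorted for CD45. Kit, which encodes c-kit, had 1 and 3.11 normalized reads in C2, against 3.36 and 72.3 in A. It was thus at or under 3 reads in C2 and in A replicate 1, and clearly present only in A replicate 2 among these 4 libraries; its difference of -3.15 ± 1.32 (SE) did not pass the test (adjusted p = 0.11).

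The widest gap between the groups belonged to Dlk1. This imprinted gene encodes a membrane ligand of the Notch family made by fetal and progenitor cells, including preadipocytes. Its centred values were 8.76 and 8.31 in C2, against -4.49 and -3.55 in A, a difference of 12.55 ± 0.36 (SE, adjusted p = 4.8e-06). Both C2 libraries also lay above the 4.73 and 4.10 of the later C3 culture, at passage 10. Next in gap was Dmrt2, a DM-domain transcription factor of the embryonic dermomyotome, with 480.5 and 385.6 normalized reads in C2, against 0 reads in either A library. Its level was at least 67.1-fold higher in C2. Wnt16, a secreted Wnt ligand, had 155.1 and 150.6 normalized reads in C2 against 0 reads in A and was at least 26.2-fold higher. Both transcripts were plain in both C2 libraries and not detected in either A library.

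Among the other genes of widest gap, Bnc1, a zinc-finger factor of epithelia and mesothelium, stood at 2.28 and 2.30 in C2, against -4.64 and -4.59 in A (6.91 ± 0.19, adjusted p = 4.8e-06). Gpc3, a growth-restraining heparan sulphate proteoglycan encoded on the X chromosome, stood at 6.68 and 6.75 in C2, against 0.05 and -2.71 in A (8.04 ± 0.80, adjusted p = 0.00067). The C2 replicates of both genes nearly coincided, while A replicate 2 lay below A replicate 1 for Gpc3, by a signed gap of -2.76. Ppp2r2b, a regulatory subunit of the phosphatase PP2A, and Nell2, a secreted protein best known from neurons, were higher by 7.85 ± 0.29 and 7.46 ± 0.44.

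At the other end, Thy1, the surface protein that defines many fibroblasts and mesenchymal stromal cells, had 20.3 and 17.6 normalized reads in C2, against 6322 and 5772 in A (-8.32 ± 0.22, adjusted p = 4.8e-06). Replicates of each group differed little beside that gap. Ndufa4l2, a hypoxia-responsive mitochondrial protein abundant in pericytes, had 14.3 and 7.25 normalized reads in C2, against 2421 and 2402 in A (-7.89 ± 0.29, adjusted p = 1.1e-05). Cxcl14, a chemokine of stromal cells, had 2.04 and 1.04 normalized reads in C2, against 2470 and 497.8 in A. That is 1 read in each C2 library, whereas both A libraries held it in plenty.

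Another 4 of these genes had 0 reads in both C2 libraries: Heyl, a target of Notch signalling, with 372.3 and 265.3 normalized reads in A, Lrrn2, a leucine-rich repeat membrane protein, with 211.8 and 202.2, Tspan11, a tetraspanin, with 283.0 and 154.9, and Cd200, a surface protein that quietens myeloid cells, with 1753 and 145.0. Their levels in C2 were at least 43.3-fold, 33.0-fold, 25.3-fold and 23.7-fold lower. Dbc1, which restrains the cell cycle, had 1 and 2.07 normalized reads in C2 against 456.7 and 438.2 in A. Pi15, a trypsin inhibitor, Arhgap6, a GTPase-activating protein, and Aqp1, a water channel, were lower in C2 by between 7.61 and 8.40 log2 units. Over all genes called higher, A was at 0 reads in both libraries for 60, and over all genes called lower, C2 was at 0 reads for 123. For Cd200 and for Igf2, described with the imprinted genes, the call was lost when the spread came from the 4 libraries alone.

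**Figure D1:**
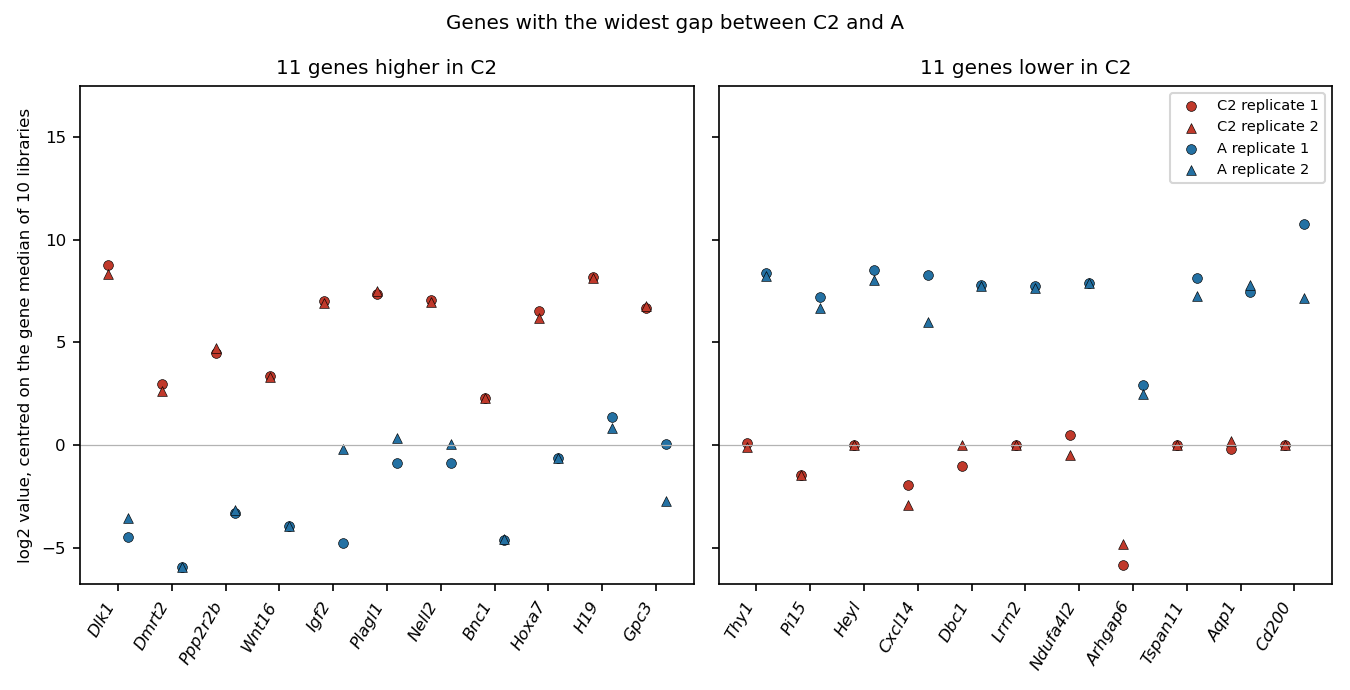
Centred log2 values of 11 of the 12 genes higher in C2 (left panel) and 11 of the 12 genes lower in C2 (right panel) with the widest gap between the groups, with C2 libraries in red left of the A libraries in blue and a symbol for each replicate. In every gene both C2 points lie on 1 side of both A points; the gap is widest for Dlk1, at 8.76 and 8.31 in C2 against -4.49 and -3.55 in A, and the A replicates lie furthest apart for Igf2, Cd200, Gpc3 and Cxcl14.

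The 250 bases before a gene start listed by RefSeq are given for 4 genes on which the account turns: Dlk1 for its gap, Hoxa7 and Upk3b for the 2 gene groups mostly higher in C2, and Notch3 for the Notch genes lower in C2. They are read 5′ to 3′ on the strand of the gene from RefSeq (GRCm38.p6), and capitals mark CpG dinucleotides, the sites of DNA methylation. For Dlk1 and Notch3 the start used lies inside the annotated span of the gene, so that the Dlk1 stretch lies wholly within that span and the Notch3 stretch overlaps its first bases.
Dlk1, chr12:109452573-109452822, plus strand: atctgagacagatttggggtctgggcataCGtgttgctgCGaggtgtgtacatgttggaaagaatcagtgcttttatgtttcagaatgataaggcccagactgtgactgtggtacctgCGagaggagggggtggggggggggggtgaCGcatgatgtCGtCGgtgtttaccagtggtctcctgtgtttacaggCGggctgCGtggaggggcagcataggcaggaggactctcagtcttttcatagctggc
Hoxa7, chr6:52218574-52218823, minus strand: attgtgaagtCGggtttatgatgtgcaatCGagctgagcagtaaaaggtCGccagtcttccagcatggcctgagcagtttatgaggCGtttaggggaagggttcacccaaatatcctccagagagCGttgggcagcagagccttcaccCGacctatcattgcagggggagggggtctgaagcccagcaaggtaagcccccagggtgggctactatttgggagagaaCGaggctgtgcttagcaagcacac
Upk3b, chr5:136038246-136038495, plus strand: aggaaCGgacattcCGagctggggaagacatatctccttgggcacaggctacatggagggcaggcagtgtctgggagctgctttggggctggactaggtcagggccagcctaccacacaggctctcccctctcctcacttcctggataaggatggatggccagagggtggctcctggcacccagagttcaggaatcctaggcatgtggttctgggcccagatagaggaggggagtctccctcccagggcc
Notch3, chr17:32166891-32167140, minus strand: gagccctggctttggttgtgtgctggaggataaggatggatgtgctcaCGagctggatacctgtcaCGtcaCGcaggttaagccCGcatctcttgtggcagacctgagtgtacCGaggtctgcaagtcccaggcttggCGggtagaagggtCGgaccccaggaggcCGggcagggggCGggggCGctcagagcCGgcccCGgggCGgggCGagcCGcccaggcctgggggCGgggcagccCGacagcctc
The stretches held 8 CpG dinucleotides for Dlk1, 7 for Hoxa7, 2 for Upk3b and 17 for Notch3, against a median of 6 over 32851 promoters of the same length. Fewer CpG were present in 57.0%, 53.7%, 18.8% and 76.5% of all promoters. The GC box GGGCGG, which itself holds a CpG, was found 4 times in the Notch3 stretch and not in the other 3, and 32.7% of all promoters held it on either strand. The TATA box TATAAA was in none of the 4 stretches on either strand, against 12.4% of all promoters. The CCAAT box was in none either, against 33.8%. The core TGGGAA read by RBPJ, the DNA-binding partner of Notch, was likewise in none, against 21.6%.

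HOX genes were higher in C2 almost throughout. Of 30 listed genes with values, HOX genes and some cofactors, 22 passed the filter; 20 of these (90.9%) were called higher in C2 and 0 lower, against 7.75% and 10.6% of all tested genes, with a median difference of 4.39. The 16 tested members of known level, on which alone the filter acts, reached it only through the culture libraries in which they were high. The share thus follows in part from the filter, and describes the genes above it and not the family. In the HOXA cluster 8 of 8 tested genes were called, in HOXB 7 of 7, in HOXD 4 of 4 and in HOXC 0 of 1.

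The genes called ranged from paralog 1 to paralog 10. Paralog 10 was Hoxa10 alone, at 4.08 and 2.07 normalized reads in C2, which is under the limit of 3 reads in both libraries. Hoxa7 had 144.9 and 113.9 normalized reads in C2, against 0 reads in both A libraries, and was at least 19.8-fold higher. Hoxd3 had 271.8 and 265.9 in C2, against 1 and 3.83 in A. Hoxa4 had 77.6 and 69.6 in C2, against 1.68 and 1 in A, and Hoxb7 had 75.5 and 82.8 in C2, against 1 and 1.92. In A, Hoxa7, Hoxd3, Hoxa4 and Hoxb7 therefore rested on 0 to 2 reads, whereas both C2 libraries read them well above the limit of detection. Hoxb2, Hoxb3 and Hoxb4 differed less, by 1.81, 1.90 and 2.02. Hoxc6, named here after its values were seen, was at 0 reads in all 4 libraries. The fit on 4 libraries called 17 of the HOX list higher and 0 lower.

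**Figure D2:**
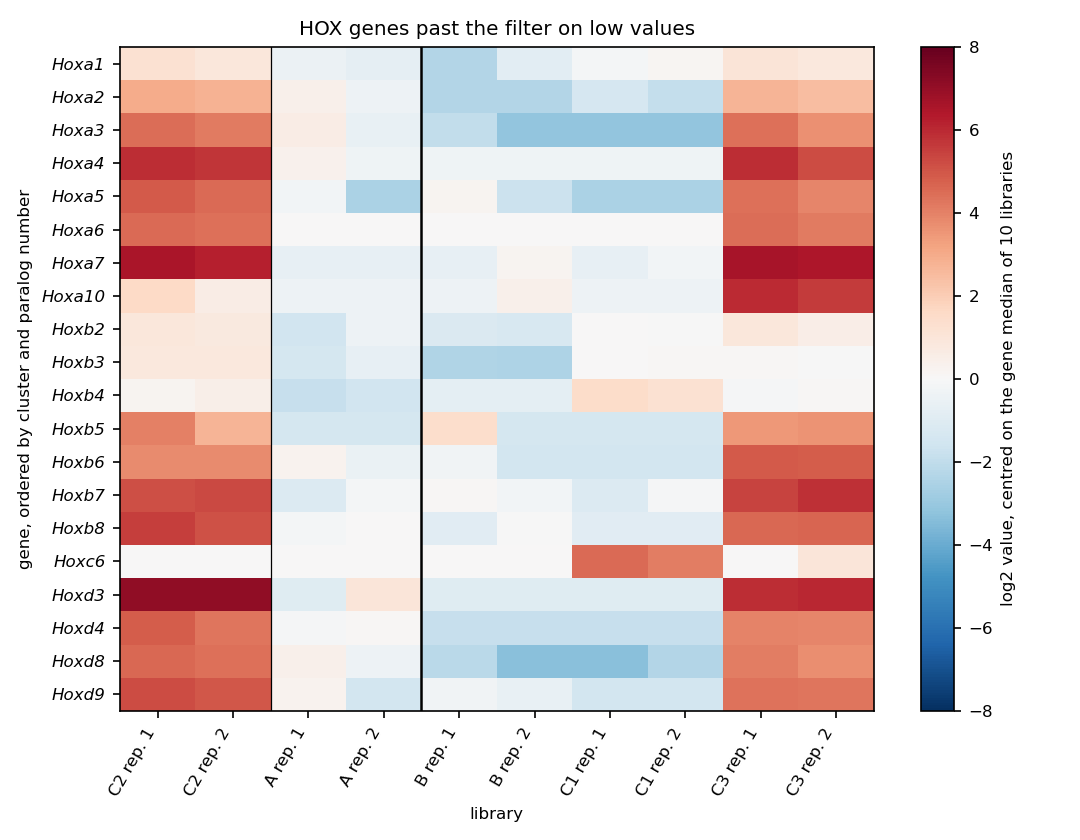
Centred log2 values (colour scale, -8 to 8) of the 20 HOX genes past the filter, ordered by cluster and paralog number, in the C2 and A libraries and, right of the heavy line, in the B, C1 and C3 libraries. The HOXA, HOXB and HOXD genes are red in both C2 columns and near or below 0 in the A columns, as for Hoxa7 at 6.54 and 6.19 in C2 against -0.64 in both A libraries; the C3 columns are also red for most rows, and Hoxc6 is deepest red in C1.

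Genes of the mesothelium and epicardium were the other group mostly higher in C2. Of 18 tested members 11 (61.1%) were called higher and 4 (22.2%) lower in C2, with a median difference of 3.43. Upk3b, a uroplakin of the mesothelial surface, stood at 0.29 and 0.03 in C2, against -5.34 and -5.38 in A (5.53 ± 0.20, adjusted p = 1.1e-05). Msln, which encodes mesothelin, stood at 0.85 and 0.54 in C2, against -5.33 and -4.56 in A (5.64 ± 0.44, adjusted p = 0.00023). For both genes the replicates lay within 1 unit of each other and the groups more than 5 apart. Gpm6a, a membrane glycoprotein, and Lrrn4, a leucine-rich repeat protein, both known markers of mesothelial cells, were higher by 6.48 ± 0.21 and 6.19 ± 0.18. In B, the parent of the culture, Upk3b stood at 0.13 and -0.03 and Msln at -0.83 and -0.54. Both genes were thus lower in A than in B as well, and Upk3b in C2 was near its level in B.

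The called members were not all of 1 kind. Aldh1a2, the retinoic acid synthesising enzyme of the epicardium, stood at -0.22 and -2.20 in C2, against 8.90 and 6.66 in A (-8.99 ± 1.05, adjusted p = 0.0013). Tcf21, a factor of epicardium-derived fibroblasts, and Tbx18, a factor of epicardium and mural cells, were lower in C2 by 3.83 ± 0.41 and 2.74 ± 0.18. Wt1, the classic epicardial transcription factor, stood at 1.28 and 1.46 in C2, against 0.68 and -2.89 in A, and did not pass the test (adjusted p = 0.11). Among the keratins of the sheet, Krt7 (5.09) and Krt18 (4.19) were higher in C2, while Krt8 (0.01) and Krt19 (-1.95) did not pass; the keratins are named after their values were seen. Outside this list, Cdh1, which encodes E-cadherin of epithelial junctions, stood at 1.43 and 1.51 in C2, against -4.00 and -3.06 in A (4.99 ± 1.07, adjusted p = 0.014); its call was lost without either C2 library. The 4-library fit called 10 members of the list higher and 4 lower.

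Imprinted genes held calls in both directions. Of 28 tested, 5 (17.9%) were higher in C2, 4 (14.3%) lower and 19 did not pass, with a median difference of 0.27. Over all tested genes 7.75% were higher and 10.6% lower, so the share called lower was close to that of all genes. The 5 were Dlk1, Igf2, H19, Plagl1 and Cdkn1c, all tied to fetal growth. Plagl1, a zinc-finger factor that acts on other imprinted genes, stood at 7.35 and 7.52 in C2, against -0.86 and 0.36 in A (7.69 ± 0.40, adjusted p = 4.7e-05). H19, a long non-coding RNA beside Igf2 on chromosome 7, stood at 8.2 and 8.13 in C2, against 1.36 and 0.85 in A (7.06 ± 0.22, adjusted p = 6.6e-06). Igf2, the fetal insulin-like growth factor, stood at 7.04 and 6.94 in C2, against -4.77 and -0.22 in A (9.48 ± 1.27, adjusted p = 0.0022). The C2 replicates of all 3 nearly coincided, while A replicate 2 of Igf2 lay 4.56 above A replicate 1, so the size of its difference depends on which is used. Without strand, reads of Igf2 and its antisense transcript cannot be told apart.

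Cdkn1c, an imprinted inhibitor of cyclin-dependent kinases, had 241.1 and 198.0 normalized reads in C2, against 15.9 and 7.66 in A (4.31 ± 0.33, adjusted p = 0.00023). In B, the parent of the culture, the centred values of Dlk1 were 0.17 and -0.17, those of Igf2 -1.32 and -0.50 and those of H19 0.12 and -0.12, so these genes were below C2 in both primary cell types. Other imprinted genes, named after their values were seen, did not pass, among them Meg3, beside Dlk1, at 0.15 and Igf2r, the receptor that clears IGF2, at -0.11. On the IGF axis as a whole 3 of 14 tested genes were higher and 2 lower in C2, against 7.75% and 10.6% of all tested genes. Igfbp7, a secreted binding protein, was lower by 3.48 ± 0.19. Igfbp3, a binding protein of the growth factors in blood, was called higher at 3.43 ± 1.07 but lost the call without C2 replicate 1, C2 replicate 2 or A replicate 1, and the 4-library fit called 0 of the IGF genes higher.

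More genes of the extracellular matrix were called lower than higher in C2. Of 50 tested genes for elastic fibres, laminins, proteoglycans and other matrix proteins, 26 (52.0%) were lower and 5 (10.0%) higher, with a median difference of -1.16. Eln, which encodes elastin, had 7.89 and 9.46 normalized reads in C2, against 1442 and 229.7 in A (-6.06 ± 0.79, adjusted p = 0.0021). Mfap5, a microfibril protein, stood at -8.24 and -4.85 in C2, against 0.89 and 0.94 in A (-7.46 ± 0.94, adjusted p = 0.0018). Eln varied more within A and Mfap5 more within C2, yet neither gene overlapped between groups; both calls were lost in the 4-library fit. Lama2, the laminin chain of muscle and nerve basement membranes, was lower by 4.98 ± 0.36, and Wisp2, a connective tissue growth factor family member, by 4.87 ± 0.44. Of the collagens 9 of 30 were lower, among them Col15a1 (-5.54 ± 0.34) and Col14a1 (-5.99 ± 0.46), and 2 higher, Col8a2 (6.59 ± 0.72) and Col4a6 (2.27 ± 0.30).

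The main fibrillar collagens did not follow. Col1a1 stood at 1.75 and 1.23 in C2, against 1.05 and 1.38 in A (0.28 ± 0.24, adjusted p = 0.41), with overlapping groups. Col1a2 (0.76 ± 0.32, adjusted p = 0.11), Col3a1 (-1.30 ± 0.43, adjusted p = 0.058) and the fibroblast proteoglycan Dcn (0.94 ± 0.22, under the size limit) were not called either. Matrix proteases and their inhibitors had 11 of 31 genes lower and 4 higher. Mmp13, a collagenase, was higher by 6.58 ± 1.14, and Timp4, an inhibitor of such enzymes, had 20.4 and 11.4 normalized reads in C2 against 0 reads in A. Fewer genes were called with 4 libraries: 14 matrix genes, 4 collagens and 4 proteases or inhibitors lower in C2. Without C2 replicate 2, 4 collagens and 7 proteases or inhibitors were called lower, and without C2 replicate 1, 5 collagens; quantile normalization called 9 collagens higher and 13 lower.

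Among stromal surface genes and the factors of mesenchymal cells, more were called lower than higher in C2. Of 21 tested surface genes 10 (47.6%) were lower and 3 higher in C2. Eng, the TGF-beta co-receptor endoglin, stood at -4.75 and -4.54 in C2, against 1.16 and 1.03 in A (-5.73 ± 0.17, adjusted p = 5.5e-06). Ly6a, which encodes the progenitor antigen Sca-1, stood at -3.03 and -1.93 in C2, against 3.67 and 4.56 in A (-6.60 ± 0.55, adjusted p = 0.00031). Thy1, described above, is in the same list, but other antigens of mesenchymal cells in it, named after their values were seen, were not lower: Vcam1 was called higher at 1.01, and Nt5e, which encodes CD73 (0.21), Cd44 (-0.69), Itgb1 (-0.70) and Alcam (0.88) did not pass. Pdgfra and Pdgfrb, the PDGF receptors of fibroblasts and of mural cells, were lower by less, 1.92 ± 0.23 and 1.68 ± 0.27. Among the factors of epithelial-mesenchymal transition, 7 of 16 were lower and 1 higher, with Twist2 lower by 5.56 ± 0.22, Sox9 by 3.47 ± 0.24 and Snai1 by 2.41 ± 0.27. Of the cardiac transcription factors 8 of 20 were lower and 3 higher; Foxc2, a forkhead factor of mesenchyme and vessels, was lower by 5.66 ± 0.38.

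Notch genes were lower in C2 in part. Of 15 tested Notch genes 5 (33.3%) were lower and 0 higher. Notch3, the receptor of mural cells, stood at 0.15 and -0.15 in C2, against 2.75 and 3.08 in A (-2.92 ± 0.40, adjusted p = 0.0026). Notch4, the receptor of endothelium, stood at -0.11 and 0.04 in C2, against 4.45 and 5.20 in A (-4.86 ± 0.39, adjusted p = 0.00027). With Heyl at 0 reads in C2, receptors and a target of the pathway were lower together, although Hes1, another target named after its value was seen, did not pass (-0.09). In the smooth muscle and contractile list, Abcc9, a potassium channel subunit, was at 0 reads in C2 against 60.5 and 66.7 normalized reads in A, at least 9.87-fold lower, and Cspg4, the proteoglycan NG2, had 6.12 and 2.07 in C2 against 195.0 and 502.9 in A.

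That list held calls in both directions. Of its 24 tested genes, Notch3 among them, 7 were lower and 4 higher, with a median of -0.04. Acta2, smooth muscle actin, stood at 0.39 and 0.36 in C2, against 0.20 and 0.15 in A and did not pass (0.21 ± 0.29, adjusted p = 0.62). Mylk, the kinase of myosin light chain, stood at 5.00 and 4.88 in C2, against -0.05 and -0.52 in A (5.23 ± 0.39, adjusted p = 0.0002), and Myh11, smooth muscle myosin, was higher by 1.38 ± 0.21. Of 14 tested endothelial genes, 7 were lower and 0 higher, against 10.6% and 7.75% of all tested genes. The filter acts only on the 7 tested members of known level. Of these, Cdh5 and Pecam1 reached it only through the A and B libraries, in which they were high. The share thus follows in part from the filter. Cdh5, the cadherin of endothelial junctions, was at 0 reads in C2 against 26.8 and 49.8 normalized reads in A, and Pecam1 at 0 reads against 16.8 and 38.3. Kdr, the VEGF receptor that defines endothelium, was at 6.12 and 5.18 normalized reads in C2, against 1 and 3.83 in A, and so at or near the limit of 3 reads in all 4 libraries. The 7 endothelial genes of known level summed to 18.5 and 28.6 normalized reads in C2, against 114.6 and 196.0 in A, with a gene at 0 reads counted as 1.

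Among chemokines and cytokines, more genes were called lower than higher in C2. Of 36 tested genes 17 (47.2%) were lower and 4 (11.1%) higher, with a median of -2.21. Il34, a ligand of the CSF1 receptor, had 1 and 1.04 normalized reads in C2, against 94.9 and 145.8 in A. Tslp, an epithelial and stromal cytokine, stood at -2.70 and -2.65 in C2, against 3.16 and 1.87 in A (-5.18 ± 0.53, adjusted p = 0.00077). With Cxcl14 these are some of the signals that stromal cells send, and they were next to absent or far lower in both C2 libraries. Cxcl15 was the called member of widest gap in the other direction, at 18.4 and 31.7 normalized reads in C2 against 0 reads in A. The chemokine Cxcl12 and the cytokine Il33, named after their values were seen, were also called higher, at 2.10 and 3.61. Signals of this kind were therefore not lower throughout. Complement genes were divided, with 9 of 24 lower and 6 higher; Serping1, the C1 inhibitor, was lower by 5.48 ± 0.27, and C7, a terminal component, was at 0 reads in C2 against 24.5 and 35.4 normalized reads in A. The 4-library fit called 11 cytokine genes lower and 4 higher.

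White blood cell and macrophage genes need the A libraries read apart. Of 19 tested white blood cell genes 4 (21.1%) were lower in C2 and 0 higher, and of 29 macrophage and monocyte genes 9 (31.0%) lower and 0 higher. A replicate 2 lay above A replicate 1 in 18 of the 19 and 27 of the 29. The macrophage genes of known level summed to 24.3 and 16.3 normalized reads in C2, against 60.9 and 829.2 in A, and the white blood cell genes to 90.9 and 131.0 in C2, against 18.5 and 408.2 in A. The sums in A thus exceeded those in C2 mostly through A replicate 2. The white blood cell sum of A replicate 1 lay below both C2 libraries. That sum covers 10 genes, counts a gene at 0 reads as 1 and can rest on few of them. Ptprc itself was at 0 reads in both C2 libraries. The list median of the centred values was 0 in both C2 libraries and in A replicate 1. Against A replicate 1 the median difference was 0 for the white blood cell list and -0.21 for the macrophage list; against A replicate 2 it was -3.84 and -5.0.

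Counts of calls moved with that library. Without A replicate 1, 17 white blood cell and 25 macrophage genes were called lower, where 13.6% of all genes were; without A replicate 2, 3 and 7 were lower, where 11.3% were, and 2 and 1 higher, where 10.2% were. The 4-library fit called 0 of either list, and leaving out C2 replicate 1 left 1 and 2 lower, leaving out C2 replicate 2 left 1 and 1. Msr1, a scavenger receptor of macrophages, had 1 and 3.11 normalized reads in C2, against 18.5 and 95.5 in A (-4.58 ± 0.79, adjusted p = 0.0062). Emr1, which encodes F4/80, was at 0 reads in C2, against 5.04 and 187.5 normalized reads in A, which is 3 reads in A replicate 1. C1qa, Csf1r and Cd68 stood at -0.29 and -0.27, -0.95 and -0.20, and -0.01 and -0.07 in C2, against 2.33 and 6.78, -1.42 and 2.91, and -0.82 and 2.90 in A. Of these, Csf1r and Cd68 did not pass (adjusted p = 0.43 and 0.46) and in A replicate 1 lay below both C2 libraries. What part of the other differences goes with these genes in A replicate 2 was not tested; without that library, 923 of the genes called higher and 1325 of those called lower were still called.

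**Figure D3:**
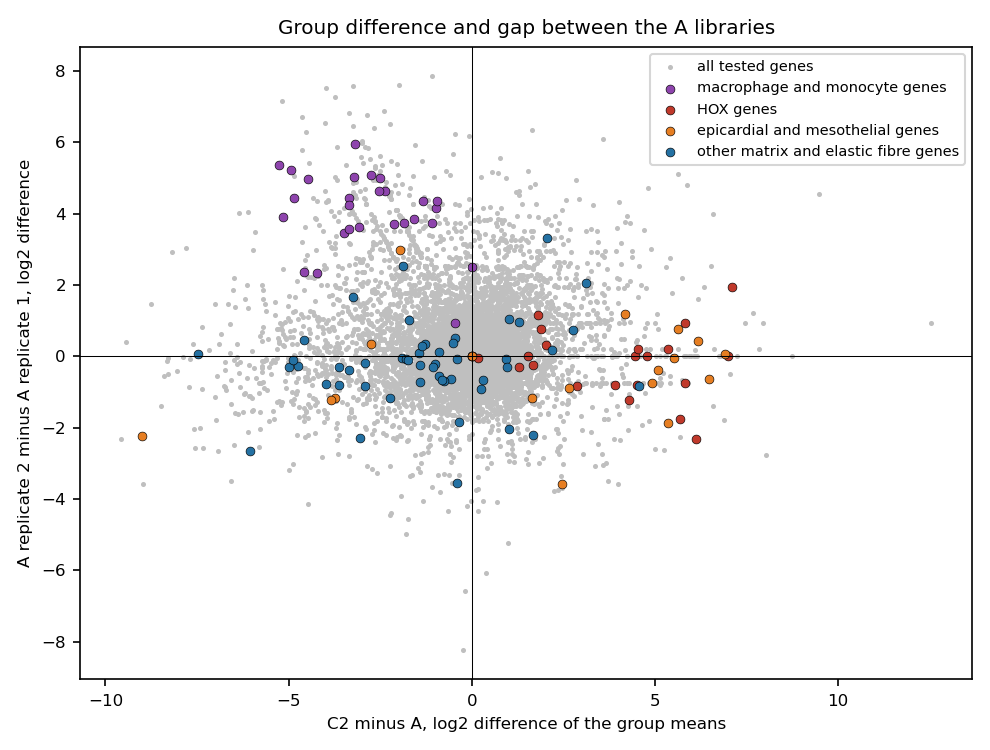
Each of the 14254 tested genes by its difference between the C2 and A means (horizontal, log2) and the gap between the A replicates, replicate 2 minus replicate 1 (vertical, log2), with 4 gene lists coloured. Macrophage and monocyte genes lie high and left, with a median gap between A replicates of 4.17, while HOX genes and most mesothelial and matrix genes lie close to the horizontal line, with median gaps of 0, -0.51 and -0.23.

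Few cell cycle genes were called. Of 30 tested mitosis genes 2 (6.67%) were higher in C2 and 0 lower, and of 31 DNA replication genes 3 (9.68%) were higher and 0 lower, against 7.75% higher and 10.6% lower over all genes. The medians were nevertheless above 0, at 0.42 and 0.39. Kif11, a spindle motor, was higher by 1.38 ± 0.19 and Mcm2, a subunit of the replication helicase, by 1.19 ± 0.21, whereas quantile normalization called 9 mitosis and 6 replication genes higher. Their brakes differed more widely. Of 24 CDK inhibitors and p53 targets 8 (33.3%) were lower and 2 higher in C2. Cdkn2b, which encodes p15, had 6.12 and 13.5 normalized reads in C2, against 627.0 and 337.0 in A (-5.66 ± 0.45, adjusted p = 0.00026). Cdkn2a, its neighbour on chromosome 4 and the gene for p16 and p19ARF, stood at -2.90 and -3.56 in C2, against 0.35 and 0.48 in A (-3.65 ± 0.30, adjusted p = 0.00032). Both were low in both C2 libraries, while Cdkn1c, described above, was high. Leaving out A replicate 1, C2 replicate 1 or C2 replicate 2 left 5 genes of the list lower, and the 4-library fit left 4.

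Secreted signals and their receptors held genes in both directions. Of 34 Wnt genes 6 were higher, Wnt16 and Sfrp2 among them, and 6 lower, among them Frzb and Wnt11. The antagonist Frzb had 59.2 and 92.0 normalized reads in C2, against 7837 and 3785 in A (-6.21 ± 0.35, adjusted p = 6.5e-05), and the antagonist Sfrp2 had 287.6 and 279.2 in C2, against 21.9 and 5.75 in A (4.66 ± 0.80, adjusted p = 0.0062). So 2 secreted Wnt antagonists differed in opposite directions. Of 42 TGF-beta and BMP genes 14 (33.3%) were lower and 3 higher; Fstl3, an activin antagonist, was lower by 5.26 ± 0.26 and Acvrl1, the receptor ALK1, by 4.09 ± 0.20, and the 4-library fit called 4 lower. In the FGF and PDGF list 7 of 28 were lower and 3 higher, with the ligand Pdgfd lower by 4.50 ± 0.36 and the ligand Pdgfc and the HGF receptor Met higher by 3.76 ± 0.27 and 2.90 ± 0.20.

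Cell contact genes were often called in 1 direction or the other. Of 24 integrins and cadherins 11 (45.8%) were lower and 8 (33.3%) higher. Cdh13, a cadherin without a cytoplasmic tail, was at 0 reads in C2 against 147.4 and 47.8 normalized reads in A, and Itga4, the alpha chain of the VCAM1 receptor, had 2.04 and 1.04 in C2 against 66.0 and 97.7 in A. Cdh3, which encodes P-cadherin and is named here beside Cdh1 after its value was seen, was higher by 4.73. Of 47 axon guidance genes 11 were lower and 7 higher; Epha3, an ephrin receptor, had 81.5 and 56.9 normalized reads in C2 against 0 reads in A, while the guidance receptor Robo1 was lower by 3.84 ± 0.23. Neural crest and Schwann cell genes had 5 of 13 lower and 1 higher. L1cam, an adhesion molecule of nerve, was at 0 reads in C2 against 43.7 and 110.5 normalized reads in A, but Sox10, which defines Schwann cells, had 0 reads in 3 of the 4 libraries and 6.72 normalized reads in A replicate 1.

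Retinoid and fat-cell genes gave further examples. Of 15 retinoic acid genes 6 (40.0%) were lower and 2 higher; besides Aldh1a2, Rarres2, the gene for chemerin, had 3.12 and 4.87 normalized reads in C2 against 74.8 and 175.7 in A. Of 20 adipogenic and fatty acid genes 6 were lower and 2 higher. Ebf2, a factor of adipocyte precursors, was at 0 reads in C2 against 397.6 and 66.4 normalized reads in A, and Ebf1 had 1 and 2.07 in C2 against 157.4 and 86.2 in A. Pparg, the main factor of fat-cell formation, went the other way, at 1.04 and 1.18 in C2, against -2.16 and -2.22 in A (3.30 ± 0.20, adjusted p = 9.1e-05). In the angiotensin and natriuretic list 4 of 13 were lower and 3 higher.

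Respiratory chain and MHC class I genes held few calls, against 7.75% of all tested genes higher and 10.6% lower. Of 52 respiratory chain subunits 1 was higher and 0 lower, and of 22 MHC class I and peptide loading genes 1 was lower, H2-D1 (-1.26 ± 0.28), and 0 higher; without A replicate 1, 4 of the MHC list were lower. Of 42 interferon-stimulated genes 7 (16.7%) were lower and 3 (7.14%) higher, and of 33 glycolysis and hypoxia genes 6 (18.2%) were higher and 3 (9.09%) lower. Among 31 lysosome genes 4 (12.9%) were lower and among 23 cholesterol synthesis genes 4 (17.4%), with 0 higher in either. Immediate early genes had 7 of 23 (30.4%) lower and antioxidant genes 8 of 35 (22.9%), with 0 higher in either. These counts moved with single libraries. Immediate early, antioxidant and cholesterol genes numbered 3, 4 and 0 lower without C2 replicate 1, 2, 6 and 2 without C2 replicate 2, 9, 12 and 2 without A replicate 1, 4, 6 and 6 without A replicate 2, and 4, 3 and 1 in the 4-library fit. Interferon genes numbered 2 lower and 1 higher in the 4-library fit, and glycolysis genes 1 higher and 1 lower. The counts of both lists also moved when 1 library was left out. Without A replicate 2, 4 lysosome genes were called higher. The secreted antioxidant enzymes Gpx3 and Sod3 were lower by 4.78 ± 0.16 and 4.76 ± 0.21. Of the DNA methylation genes 8 of 11 did not pass, while the demethylases Tet1 and Tet3 were higher by 2.73 ± 0.45 and 1.22 ± 0.19 and Dnmt3l, a cofactor of the methylating enzymes, was lower by 2.54 ± 0.30. In the 4-library fit, calls lower in C2 came to 3 for Notch, 4 for endothelial, 4 for epithelial-mesenchymal transition, 5 for cardiac transcription factor, 6 for integrin and cadherin, 4 for axon guidance, 2 for neural crest and 3 for adipogenic genes. Counts of surface, TGF-beta and BMP, imprinted, integrin and cadherin, and matrix protease genes moved when 1 library was left out. Those of neural crest, FGF and PDGF, and axon guidance genes did so too. Heart muscle genes had 2 of 9 (22.2%) higher and 2 lower, and each of these calls was lost without C2 replicate 1 or C2 replicate 2. The 3 heart muscle genes of known level summed to 6.08 and 3.0 normalized reads in C2, against 17.1 and 6.75 in A. A gene at 0 reads counts as 1 in these sums, and Mybpc3, called lower, alone had 15.1 in A replicate 1. The marker Tnnt2, of unknown level, was called higher, at 0.98 and 1.77 in C2 against -4.71 and -0.94 in A (4.20 ± 1.16, adjusted p = 0.034). Its call was also lost without A replicate 1 and in the 4-library fit.

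**Figure D4:**
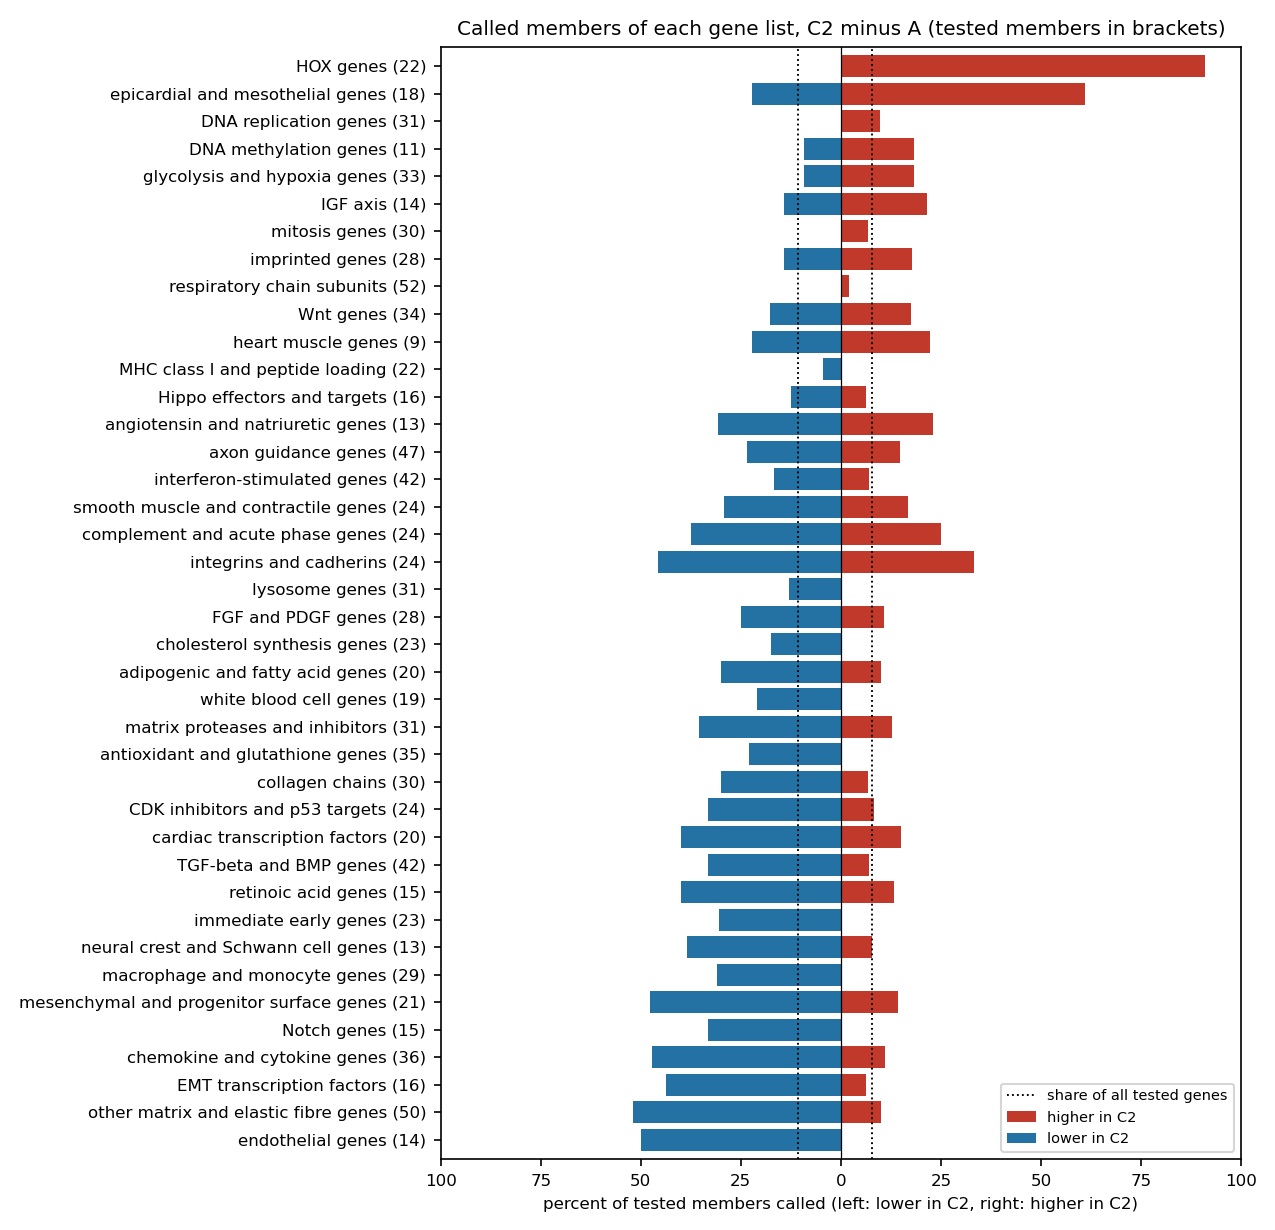
Percent of the tested members of 40 gene lists that were called lower in C2 (blue, left of 0) or higher in C2 (red, right of 0), with the number tested in brackets and dotted lines at the share of all tested genes, 10.6% lower and 7.75% higher. HOX genes (90.9% higher, a share that follows in part from the filter) and mesothelial genes (61.1%) stand furthest to the right. Matrix genes (52.0% lower) and endothelial genes (7 of 14, a share that follows in part from the filter) stand furthest to the left.

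Genes of the sex chromosomes also differed. Of 4 tested Y-linked genes, 4 were lower in C2. Ddx3y, an RNA helicase, had 57.2 and 86.2 normalized reads in C2, against 618.4 and 353.4 in A (-2.74 ± 0.31, adjusted p = 0.0012), and Kdm5d, a histone demethylase, 40.8 and 44.4 in C2, against 213.2 and 200.4 in A (-2.28 ± 0.12, adjusted p = 4.8e-05). Xist, a non-coding RNA that coats and silences the inactive X of female cells, stood at -5.80 and -4.61 in C2, against 1.09 and 4.12 in A (-7.81 ± 0.89, adjusted p = 0.0012), a call lost in the 4-library fit. Y-linked and Xist transcripts were thus both lower in C2, and both were read in the A libraries. Whether libraries pooled animals of both sexes is not given in the labels, and without strand the reads of Xist and Tsix, which overlap on opposite strands, are not separable.

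The differences were not spread evenly over the chromosomes. On chromosome 4 the median difference of 871 tested genes was -0.60, with 21.7% of them called lower and 2.76% higher in C2. On chromosomes 6, 19 and 10 the medians were 0.51, 0.51 and 0.40 over 713, 501 and 680 genes, with 20.6%, 18.6% and 14.6% called higher. Every other autosome and X lay between -0.14 and 0.06. The shift was alike in each pairing of a C2 with an A library, on chromosome 4 between -0.65 and -0.57. Along chromosome 4 the medians of 4 successive sets of its genes were -0.51, -0.52, -0.67 and -0.64, so the difference was not that of 1 stretch. Hoxa genes lie on chromosome 6, Plagl1 and Ndufa4l2 on 10, Dmrt2 on 19 and Cdkn2a, Cdkn2b and Heyl on 4. Whether the differences of these genes go with the shifts of their chromosomes was not tested. DNA copy number was not measured.

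**Figure D5:**
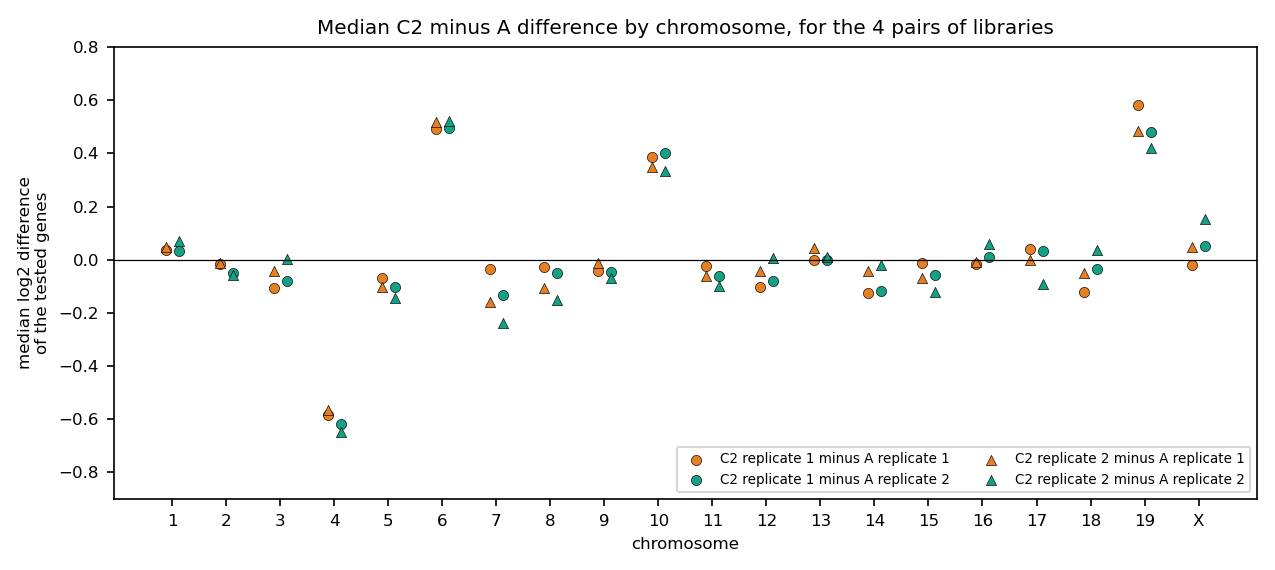
Median log2 difference of the tested genes on each autosome and X, for the 4 pairings of a C2 library with an A library (colour for the A library, symbol for the C2 library). All 4 points lie between -0.65 and -0.57 on chromosome 4 and between 0.34 and 0.58 on chromosomes 6, 10 and 19, whereas the points of the other chromosomes lie between -0.24 and 0.15.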

How the data were processed

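RNA sequencing libraries of 10 samples were made with a kit that does not mark strand. The tools TopHat and DESeq and the mouse build mm10 appear, per the submitters' processing notes, without version, role or order. How reads were counted, and against which annotation, was not given in the sources used here. Log2 values per gene were deposited by the authors; how they were made was read from the values, as the log2 of reads divided by a library size factor, raised to at least 1, minus the gene's median over the 10 libraries. That median was 0 within 1e-05 for all 17821 genes with values. Another 18334 genes were 0 everywhere and 17 with a date in a cell were left out. Between 65.1% and 70.6% of low values in the C2 and A libraries lay within 0.01 of whole reads (up to 20 reads), too few to rebuild counts, and no count test was run.

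A gene needed 10 normalized reads in at least 2 libraries, a filter that acts only where the level is known: 3567 genes were removed and 14254 tested, 1195 of them with a known level. The linear model, in limma 3.58.1 under R 4.3.3, had a mean for each of the 5 groups and used all 10 libraries (5 residual degrees of freedom, 1.93 prior degrees of freedom, prior SD 0.211). The C2 minus A contrast was tested two-sided with Benjamini-Hochberg adjustment over all tested genes, and a call needed an adjusted p below 0.05 with a log2 difference of 1 or more in either direction. Differences are on this floored log2 scale and understate changes of low genes. Errors are SE of the fit, with n = 2 libraries per group. On simulated data of 14254 genes for this contrast, 79 of 100 changes of 2 log2 units and 84 of 100 of 3 were recovered, with 5 false calls. The simulated noise was independent between genes and had the same spread in every group. In the data the A replicates lay 1.06 apart and the C2 replicates 0.520, so the simulation does not give the error rate of this contrast.

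Named genes are the 12 higher and 12 lower of widest gap between the groups, the called members of widest gap, up to 4 for each of 42 gene lists, and cell type, sort and sex-chromosome markers; genes outside the rule are said to be. A few genes that the rule would name are not reported here. The comparison and the lists were chosen with earlier results of these data known, so list counts are descriptions. Coordinates and promoter sequences are RefSeq's for GRCm38.p6, to which 14108 tested genes matched by identifier. Alternatives were the 4 compared libraries alone, a replicate block, quantile and median scaling, no filter, a stricter filter at 30 normalized reads, robust shrinkage, a pseudocount of 5 and leaving out each library.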

Additional observations from a re-analysis of the deposited data

How the results depend on the processing

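Of the genes that the naming rule picked, 162 were called; their directions held under each of the 12 alternatives that tested them, and 103 kept their call in each. The stricter filter did not test 5 of the 162. The 2621 calls (1104 higher, 1517 lower) became 1097 (426 and 671) with only the C2 and A libraries, which lost 52 of the named calls. Quantile normalization gave 1801 higher and 1784 lower, so that 50.2% of calls were higher in place of 42.1%. Leaving out 1 library gave 1832 to 3144 calls in all, 729 (without C2 replicate 2) to 1454 (without A replicate 2) higher and 1103 to 1941 lower; a lone library is then assumed to vary like the other groups. The other settings stayed within 1.5 times the 3 counts. With the replicate number as a block, 1081 were higher and 1492 lower and 3 named calls were lost; deviations of same-numbered C2 and A libraries correlated at -0.061, so the samples share only a number. Values that did not pass and turned round without 1 library ranged from -3.49 to 0.85 for Csf1r, -2.94 to 0.79 for Cd68 and -0.21 to 1.74 for Cnn1. The difference of Sox10, which did not pass either, ranged from -2.75 to 0 and came to 0 without A replicate 1. Causes of these moves were not tested. Of 84 list counts, 51 moved by over 1.5 times in the 4-library fit and 12 to 25 when a library was left out. Depth limits genes near 3 reads, most in C2 replicate 1, where 1 read is worth the most of these 4.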
